A study of Sus scrofa with 8 samples.

Results

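The D cyclins CCND1, CCND2 and CCND3, the cyclin-dependent kinase (CDK) inhibitors CDKN1A, CDKN1B, CDKN1C and CDKN2C, and the retinoblastoma gene RB1 were followed across pig embryonic trunk cells. These 8 genes were chosen by symbol from the 21301 genes of the deposited matrices, and each matched 1 row. The 8 droplet libraries of single cells held 1 for each of 4 stages in each of 2 breeds, Tibetan pigs (ZZ) and a Duroc by Tibetan cross (DZ). Somites, the segmental blocks of mesoderm that give rise to muscle and vertebrae, were taken at embryonic day (E) 16, 18 and 21, and the myotome, their muscle-forming layer, at E28. Each library pooled 5 embryos of 1 sow, the labels name no treatment, and stage was confounded with tissue at E28 and with the version of the counting software at E16. A stage was therefore represented by 2 libraries that also differed in breed. P-values of stage comparisons measure the spread left after stage and breed, taken over all libraries of a fit (8 for whole libraries).

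In the cell cycle, D cyclins bind CDK4 and CDK6 and pass growth signals to the retinoblastoma protein, whose phosphorylation releases E2F factors and opens the way to DNA replication. The CIP/KIP inhibitors p21 (CDKN1A), p27 (CDKN1B) and p57 (CDKN1C) bind cyclin-CDK complexes, whereas the INK4 inhibitor p18 (CDKN2C) binds CDK4 and CDK6 alone. In skeletal muscle, p21 and p57 are known for their part in the permanent exit of myoblasts from the cycle, and the retinoblastoma protein for holding that state.

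After filtering, 74147 of 90688 barcodes were kept, with 5436 to 10956 cells and 39852689 to 57568895 unique molecular identifiers (UMIs) per library. The E16-ZZ library stood apart, with 39.2% of its barcodes over the mitochondrial limit against 1.05% to 9.15% in the other 7, and 678 of 73464 distinct barcodes occurred in 2 or more libraries. Cells were assigned to types by gates on the UMIs of marker genes, and 33260 cells entered 1 of 17 gates while 5189 cells that met gates of several lineages were left out. The muscle lineage was followed through 5 gates. PAX3+ cells carried PAX3 with a dermomyotome marker, MYF5+ cells carried MYF5 without MYOD1 or MYOG, MYOD1+ cells had no MYOG, MYOG+ cells had at most 2 MYH3 UMIs, and MYH3+ cells had 3 or more with MYOG or the fusion gene MYMK. MYMK was present in 99.3% of MYH3+ cells against 4.33% of all cells. The neural progenitor gate rested on PAX6, HES5 and NKX6-1, and ERBB3 of the neural crest and glial list was present in 93.6% of all cells and therefore marked little. Levels are given as CPM, the UMIs of a gene scaled to the summed UMIs of a library, or of a gate with at least 20 cells in a library. In each pair of values the ZZ library comes first. Tests between gates took all gates and libraries together in a single fit, with library as a block. Their p-values measure the spread left after gate and library over all cell types, not that of the compared gates alone.

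CDKN1A is shown at sequence level because its UMIs were concentrated in muscle cells, and myogenic factors of the MYOD1 family bind E-boxes, the motif CANNTG. The RefSeq window of 250 bases before its start, Sscrofa11.1 chr7:32354526-32354775 on the plus strand, is printed below with its E-boxes in capitals.

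CDKN1A: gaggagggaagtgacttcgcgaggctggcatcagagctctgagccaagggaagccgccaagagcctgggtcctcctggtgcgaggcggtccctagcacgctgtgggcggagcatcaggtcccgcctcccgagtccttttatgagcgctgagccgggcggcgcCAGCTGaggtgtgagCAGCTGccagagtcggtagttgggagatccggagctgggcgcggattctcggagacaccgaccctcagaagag

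Both E-boxes read CAGCTG, which is its own reverse complement, and lay 88 and 73 bases before the start. CAGCTG occurred in 13.6% and any CANNTG in 61.9% of 19556 promoter windows of that length. CCND2 held 1 CAGCTG at 195 bases, CCND3 and CDKN1B each held 1 other CANNTG, at 248 and 192 bases, and the windows of CCND1, CDKN1C, CDKN2C and RB1 held none on either strand. These matches describe letters and no binding was measured here.

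In whole libraries, CCND1 was at 124 and 130.5 (E16), 161 and 164 (E18), 208 and 185 (E21) and 142 and 206 (E28) CPM. CCND2 was at 325 and 254 (E16), 508 and 369 (E18), 241 and 282 (E21) and 251 and 336 (E28) CPM. Both E18 libraries were the highest of their breed for CCND2. CCND3 was at 24.2 and 21.2 (E16), 22.8 and 22.7 (E18), 31.5 and 30.7 (E21) and 46.2 and 47.1 (E28) CPM, and both E28 libraries lay above the other 6. Among the inhibitors, CDKN1A was at 6.75 and 3.81 (E16), 2.87 and 3.5 (E18), 8.62 and 12.3 (E21) and 12.1 and 25.2 (E28) CPM. CDKN1B was at 7.23 and 6.24 (E16), 11.6 and 12.6 (E18), 26.1 and 22.6 (E21) and 20.1 and 24 (E28) CPM, and the 4 libraries of E21 and E28 lay above the 4 earlier ones. CDKN1C was at 157 and 144 (E16), 373 and 179.7 (E18), 333 and 259.7 (E21) and 438 and 557 (E28) CPM, and the E28 libraries were the highest. CDKN2C stayed between 0.904 and 3.46 CPM and RB1 between 3.62 and 12.1 CPM.

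**Figure D1:**
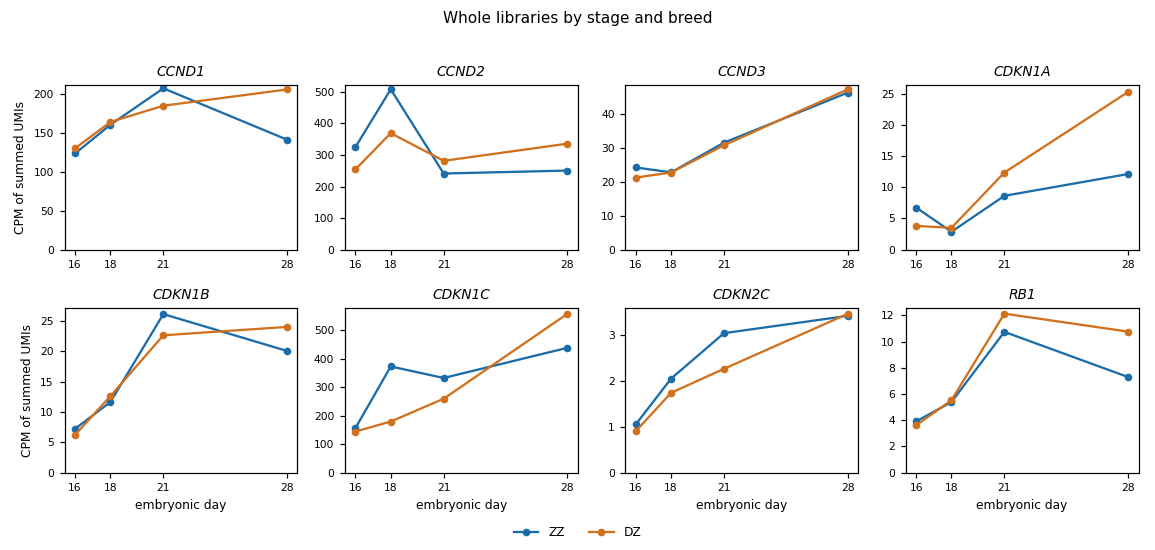
Level of each gene in whole libraries, in CPM of summed UMIs (linear axis from 0), against embryonic day, with 1 point per library and lines joining the 4 libraries of a breed. CDKN1B and RB1 were higher at E21 and E28 than at E16 and E18 in both breeds.

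Stages were compared by edgeR's quasi-likelihood test with breed in the model and Benjamini-Hochberg adjustment over 15119 genes. Between E16 and E18, 0 of the 8 genes passed an adjusted p of 0.05, where 4.7% of all genes did, and CDKN1B came nearest with a log2 fold change of 0.68 (SE 0.15, adjusted p = 0.0544). Between E18 and E21, 4 of 8 passed, against 21.2% of all genes. CDKN1A rose by 1.63 (SE 0.41, adjusted p = 0.0339), CDKN1B by 0.92 (SE 0.15, adjusted p = 0.00978) and RB1 by 0.98 (SE 0.22, adjusted p = 0.0233), while CCND2 fell by 0.82 (SE 0.24, adjusted p = 0.0491), all on the log2 scale. Between E21 and E28 CCND3 alone passed, with 0.57 (SE 0.12, adjusted p = 0.0393), where 8.53% of all genes did. In whole libraries, fewer cells of a type and less RNA per cell cannot be told apart. With 2 libraries a stage, each of these calls was lost without 1 library or another, while the differences kept their direction. CDKN1B was no longer called without E18-ZZ or E18-DZ (0.84 to 0.96, adjusted p 0.0788 to 0.11). CDKN1A (1.35 to 1.87, adjusted p 0.0698 to 0.182) and RB1 (0.85 to 1.08, adjusted p 0.0599 to 0.197) were lost without any 1 of the 4 libraries of E18 and E21, and CDKN1A also with 5000 cells per library. CCND2 was lost without either E16 library, either E18 library or E21-ZZ (-1.14 to -0.53, adjusted p 0.0552 to 0.32), and with RLE size factors, a mitochondrial limit of 5% or no scaling factors. CCND3 was lost without any 1 of the 8 libraries (0.46 to 0.68, adjusted p 0.0517 to 0.14) and at that mitochondrial limit. Between the breeds, log2 differences of the 8 genes (DZ minus ZZ) ran from -0.31 to 0.26 with standard errors of 0.088 to 0.29. None passed, and neither did any other gene (0%), with 918 of 15119 genes at an unadjusted p under 0.05 and 57 called by DESeq2.

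CCND1 was present in muscle progenitors and myoblasts and low in MYH3+ cells. In PAX3+ cells it was at 63.7 and 69.9 (E16), 105 and 124 (E18) and 141 (E21-ZZ) CPM, and E21-DZ was the highest of the 6 with 33 UMIs in 41 cells. It was at 118 and 102 (E18), 83.4 and 109.9 (E21) and 110.4 and 239 (E28) CPM in MYF5+ cells. MYOG+ cells held 97.4 (E18-DZ), 203 and 128 (E21) and 169 and 245 (E28) CPM. In MYH3+ cells the values were 29.4 and 32.7 (E18), 18.5 and 27.2 (E21) and 12.5 and 51.8 (E28) CPM, and each of these 6 lay below every value of the other 4 muscle gates. CCND1 fell by 2.37 on the log2 scale from MYOG+ to MYH3+ cells (SE 0.49, adjusted p = 8.38e-05), in 5 of 5 libraries that held both. CCND2, the second D cyclin of the lineage, was at 322 ± 84 CPM (SD, n = 6) in MYF5+, 489 ± 36.1 CPM (SD, n = 4) in MYOD1+, 566 ± 133.5 CPM (SD, n = 5) in MYOG+ and 361 ± 109 CPM (SD, n = 6) in MYH3+ cells. The ranges of neighbouring gates overlapped at each of these steps except MYF5+ to MYOD1+, and no step of CCND2 passed the test (adjusted p 0.209 to 0.794). CCND3, which binds the same kinases, was at 14.9 and 21.2 (E18), 35 and 29.8 (E21) and 43.4 and 39.8 (E28) CPM in MYF5+ cells and at 67 and 42.3 (E21) and 69.7 and 69.3 (E28) CPM in MYOD1+ cells. In MYOG+ cells it reached 76.5 (E18-DZ), 90.7 and 96.4 (E21) and 92.2 and 96.4 (E28) CPM, and MYH3+ cells were back at 33.6 and 43.6 (E18), 21.9 and 21.5 (E21) and 32.1 and 24.6 (E28) CPM. The 5 MYOG+ values lay above every MYOD1+ and every MYH3+ value. CCND3 rose by 0.97 from MYF5+ to MYOD1+ (SE 0.23, adjusted p = 0.0121), differed by 0.74 from MYOD1+ to MYOG+ without passing (SE 0.23, adjusted p = 0.0662), and fell by 1.499 from MYOG+ to MYH3+ (SE 0.24, adjusted p = 5.93e-07). The first of these calls was lost without E18-ZZ, E28-ZZ or E28-DZ (adjusted p 0.0649 to 0.0821) and with stricter gates.

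**Figure D2:**
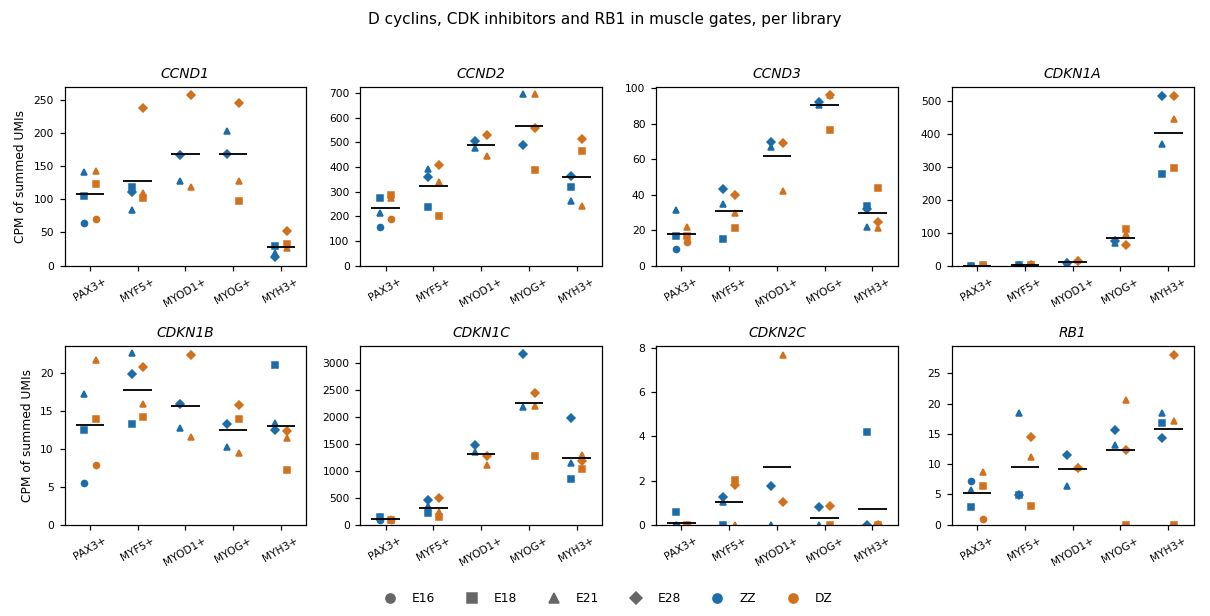
Level of each gene in the 5 muscle gates, in CPM of summed UMIs (linear axes from 0), 1 point per library with at least 20 cells; marker shape gives the stage, colour the breed and the bar the mean. CDKN1A was near 0 up to the MYF5+ gate and at 277 CPM or more in all 6 MYH3+ sums, where CCND1 was lowest.

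CDKN1A was nearly absent before MYOD1 and rose both from MYOD1+ to MYOG+ cells and from MYOG+ to MYH3+ cells. PAX3+ cells held 2 CDKN1A UMIs and MYF5+ cells 14 in all. MYOD1+ cells were at 9.58 and 17.3 (E21) and 7.06 and 13.6 (E28) CPM, MYOG+ cells at 111 (E18-DZ), 68.8 and 94.8 (E21) and 75 and 64.1 (E28) CPM and MYH3+ cells at 277 and 298 (E18), 370.0 and 446 (E21) and 517 and 516 (E28) CPM. These 3 gates did not overlap. From MYF5+ to MYOD1+ cells the difference was 2.52 (SE 0.78, adjusted p = 0.142), which did not pass. The rise from MYOD1+ to MYOG+ was 3.14 on the log2 scale (SE 0.54, adjusted p = 6.63e-05) and that from MYOG+ to MYH3+ was 2.72 (SE 0.38, adjusted p = 3.14e-08), in 4 of 4 and 5 of 5 libraries. When each cell was thinned to 2000 UMIs before gating, the first of these was 1.39 and no longer called (adjusted p = 0.116). Over pooled UMIs, MYH3+ cells held 444 CPM (1557 UMIs) and MYF5+ cells 1.82 CPM, a ratio of 244 with an exact 95% interval of 145 to 448 that covers counting error only. In cells thinned to 2000 UMIs, CDKN1A was detected in 0.346% of MYF5+, 2.21% of MYOD1+, 10.7% of MYOG+ and 48.7% of MYH3+ cells. Without thinning these shares were 0.904%, 5.36%, 23.4% and 84.5%. All of these shares are means over libraries. Neural progenitors, of E16, E18 and E21-ZZ, held 0 CDKN1A UMIs in 343 cells, which allows up to 1.2 CPM. At E28, where they were not present as sums, CDKN1A was at 1.36 and 4.14 CPM in fibroblasts and at 7.27 (2 UMIs) and 36.2 CPM (10 UMIs) in erythroid cells, so that the E28 values of MYOD1+ cells were not above those of erythroid cells, while those of MYOG+ and MYH3+ cells were. Median depths of the gate's sums were 3597.5 to 8019.5 UMIs for neural progenitors and 5902 to 9995 UMIs for MYH3+ cells.

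CDKN1C was already present in PAX3+ cells and rose between MYF5+ and MYOD1+ cells. It was at 87.4 and 83 (E16), 134.3 and 88.7 (E18) and 143.4 and 108 (E21) CPM in PAX3+ cells and at 218 and 142 (E18), 343 and 243 (E21) and 464 and 499.8 (E28) CPM in MYF5+ cells. MYOD1+ cells held 1341 and 1107 (E21) and 1481 and 1276 (E28) CPM, MYOG+ cells 1266 (E18-DZ), 2175 and 2205 (E21) and 3149 and 2436 (E28) CPM and MYH3+ cells 848 and 1035 (E18), 1142 and 1282 (E21) and 1974 and 1183 (E28) CPM. Every MYOD1+ value lay above every MYF5+ value, whereas MYOG+ and MYH3+ overlapped. The step from MYF5+ to MYOD1+ was 2.03 on the log2 scale (SE 0.27, adjusted p = 1.61e-07) and was called under all 18 alternatives tried. The steps from PAX3+ to MYF5+, 1.11 (SE 0.27, adjusted p = 0.0213), and from MYOD1+ to MYOG+, 1.03 (SE 0.28, adjusted p = 0.0278), passed too, each higher in 4 of 4 libraries. The former was lost without E16-DZ, E21-ZZ, E21-DZ, E28-ZZ or E28-DZ (1.03 to 1.15, adjusted p 0.0585 to 0.123), without both E16 libraries and with no doublets removed. The latter was lost without any 1 of the 4 libraries of E21 and E28 (0.95 to 1.09, adjusted p 0.0817 to 0.182), with gates read after thinning (0.78) and with no scaling factors. From MYOG+ to MYH3+ the difference was -0.64 (SE 0.25, adjusted p = 0.0515), lower in 5 of 5 libraries. After thinning, CDKN1C was detected in 19.8% of PAX3+, 36.1% of MYF5+, 70.6% of MYOD1+, 86.2% of MYOG+ and 77.3% of MYH3+ cells. In erythroid cells, the gate with the lowest mean CDKN1C level, the share was 1.78%. Each share is a mean over libraries. Without thinning the muscle shares were 40.7%, 61.1%, 82.1%, 92.0% and 96.6%, and that of erythroid cells 9.34%. CDKN1B, the third CIP/KIP gene, stayed between 5.46 and 22.7 CPM over the muscle sums and passed at no muscle step. CDKN2C held 1 to 8 UMIs per muscle gate.

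RB1 was low throughout the lineage. It was at 4.96 and 3.04 (E18), 18.5 and 11.2 (E21) and 4.96 and 14.5 (E28) CPM in MYF5+ and at 16.8 and 0 (E18), 18.5 and 17.2 (E21) and 14.2 and 28.1 (E28) CPM in MYH3+ cells, and these values overlapped. Its difference between MYH3+ and MYF5+ cells was 1.15 on the log2 scale (SE 0.39, adjusted p = 0.0128), higher in 4 of 6 libraries, and it was not called without E28-DZ (1.05, adjusted p = 0.0728) or with no scaling factors.

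Read as counts, 1 of the 8 genes was called between PAX3+ and MYF5+ cells, where 0.71% of 11829 genes were, and 2 between MYF5+ and MYOD1+ cells (0.769%). There were 2 between MYOD1+ and MYOG+ cells (2.49%) and 3 between MYOG+ and MYH3+ cells (23.1%). Between MYH3+ and MYF5+ cells 4 were called, where 38.9% of all genes were. CDKN1A was higher by 8.38 (SE 0.53, adjusted p = 1.66e-23) and CDKN1C by 2.41 (SE 0.25, adjusted p = 3.01e-13), RB1 was the third, and CCND1 was lower by 1.74 on the log2 scale (SE 0.47, adjusted p = 0.00174). The median over the 8 genes was 0.35 and over all genes -0.12.

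A few cells carried much of the CDKN1A of a library. MYH3+ cells were 0.269% to 1.13% of the cells at E18 to E28 and held 40.0% to 57.9% of the CDKN1A UMIs. The MYF5+, MYOD1+, MYOG+ and MYH3+ gates together were 0.129% and 0.158% (E16), 2.02% and 1.998% (E18), 4.41% and 5.46% (E21) and 7.02% and 14.5% (E28) of cells. These gates held 0% of the CDKN1A UMIs in both E16 libraries and 48.5%, 53.5%, 71.1%, 67.9%, 75.6% and 72.8% in the later 6. Their part of the CDKN1C UMIs was 0.112% and 0.108% (E16), 3.28% and 6.42% (E18), 19.9% and 27.1% (E21) and 38.2% and 45.9% (E28). Of the 269 and 219 CDKN1A UMIs of the E16 libraries, 51 and 43 lay in epithelial, 50 and 18 in fibroblast and 33 and 40 in endothelial cells.

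Over the 16 gates present in 2 or more libraries, gates next to each other in the order of means mostly overlapped. Of 15 neighbouring pairs, the ranges were apart in 2 for CCND1, 2 for CDKN1A, 1 each for CCND3, CDKN1C and CDKN2C, and 0 for CCND2, CDKN1B and RB1. CCND1 was highest in endothelial cells at 407 ± 145 CPM (SD, n = 8) and lowest in erythroid cells at 6.2 ± 4.03 CPM (SD, n = 8). CCND2 was highest in MYOG+ cells and also lowest in erythroid cells, at 58 ± 17.3 CPM (SD, n = 8). CDKN1A stood at 404 ± 105 CPM (SD, n = 6) in MYH3+ cells, 82.8 ± 19.8 CPM (SD, n = 5) in MYOG+ cells and 13.1 ± 15.7 CPM (SD, n = 8) in endothelial cells, and the ranges of these 3 gates were apart. CDKN1B had its highest mean in neurons, through the E21 and E28 libraries. Its fitted difference between neurons and neural progenitors was 0.05 on the log2 scale (SE 0.36, adjusted p = 0.957). In the libraries that held both gates, however, CDKN1B was lower in neurons in 4 of 4 (means of 14.9 and 30.2 CPM). The highest mean of CDKN2C was in erythroid cells and that of RB1 in neural progenitors.

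**Figure D3:**
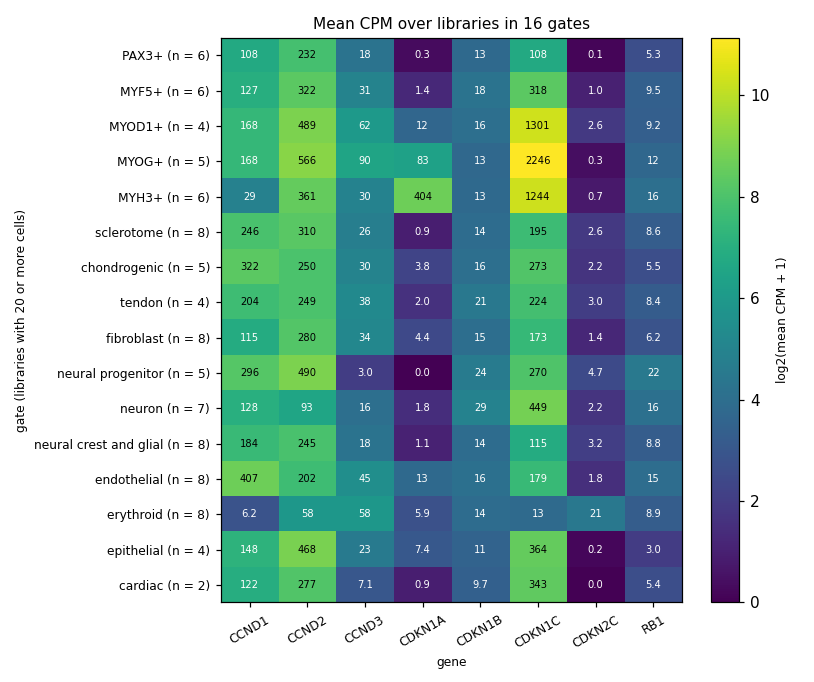
Mean level over libraries of each gene (columns) in the 16 gates with 2 or more libraries (rows); numbers are CPM, colour is log2(mean CPM + 1) and n is the number of libraries. CDKN1A stood out in the MYOG+ and MYH3+ rows, CDKN1C from MYOD1+ on and CDKN2C in the erythroid row. CCND1 had its highest mean in the endothelial row, but its library range there overlapped that of chondrogenic cells (mean 322 CPM).

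The neuron and neural progenitor gates differed in the D cyclins. Whether these neurons came from cells of that progenitor gate was not tested. CCND1 was at 326 and 225 (E16), 396 and 409 (E18) and 126 (E21-ZZ) CPM in neural progenitors and at 163 (E16-DZ), 257 and 289.9 (E18), 92 and 83.9 (E21) and 7.1 and 4.7 (E28) CPM in neurons. CCND2 was at 769 and 500.5 (E16), 414 and 577 (E18) and 189 (E21-ZZ) CPM in neural progenitors and at 157 (E16-DZ), 126 and 270.4 (E18), 29.7 and 36.2 (E21) and 21.3 and 9.4 (E28) CPM in neurons. Each was lower in neurons in 4 of 4 libraries that held both gates, and E28 neurons were lowest for both genes. CCND1 fell by 1.37 (SE 0.40, adjusted p = 0.00576) and CCND2 by 2.44 on the log2 scale (SE 0.34, adjusted p = 4.6e-08). In the 4 libraries with both gates the means in neurons and progenitors were 200.6 and 288.9 CPM for CCND1 and 145.9 and 420.3 CPM for CCND2, and the fit also used neurons of E21-DZ and E28, which had no sum of progenitors beside them. CCND3 was higher by 1.55 (SE 0.40, adjusted p = 0.00154), but rested on 14 UMIs in neural progenitors and was lost with gates read after thinning and with at least 50 cells per sum. CDKN2C fell by 2.14 on the log2 scale (SE 0.74, adjusted p = 0.0229), from 17 UMIs in progenitors, but was lower in 2 and higher in 2 of the 4 libraries with both gates (means of 3.22 and 4.30 CPM), and was lost without E18-ZZ, E18-DZ, E21-ZZ or E28-DZ (adjusted p 0.0549 to 0.125), by DESeq2 and with a mitochondrial limit of 5%. These were 4 of the 8 genes, where 27.7% of all genes were called. CDKN1C differed by 0.64 (SE 0.28, adjusted p = 0.0712), and the 7 neuron values were 279 (E16-DZ), 1016 and 428 (E18), 433 and 407 (E21) and 323 and 259 (E28) CPM.

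Within the neuron gate, the libraries of E21 and E28 were compared with those of E16 and E18. CDKN1B was at 3.14 (E16-DZ), 6.43 and 11.8 (E18), 38.2 and 37.9 (E21) and 53.2 and 54.5 (E28) CPM in neurons, and every late value lay above every early one. It rose by 2.25 on the log2 scale (SE 0.40, adjusted p = 0.00559), CCND2 fell by 2.96 (SE 0.42, adjusted p = 0.00224) and CCND1 fell by 2.35 (SE 0.71, adjusted p = 0.0452). These were 3 of 6 genes tested, against 19.9% of all 9368 genes. The CCND2 change was called under all 18 alternatives, that of CDKN1B under 16, and that of CCND1 under 8, being lost without E16-DZ, E18-ZZ, E18-DZ or E28-ZZ (adjusted p 0.0563 to 0.191). CDKN1B and CCND1 were both lost with stricter gates and with gates read after thinning, and CCND1 also by DESeq2, with no doublets removed, with at least 50 cells per sum and with no scaling factors. The share of neurons with 3 or more UMIs of 34 mitotic genes, in cells thinned to 2000 UMIs, was 27.0% to 52.4% in the early libraries and 1.01% to 5.27% in the late ones, and its part in these differences was not tested. Of 12 DNA replication genes, 11 were lower in the late neurons, where 924 of 9368 genes were (median log2 fold change -2.35 against 0.01 over all genes), among them the origin recognition subunit ORC1 at -4.05.

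**Figure D4:**
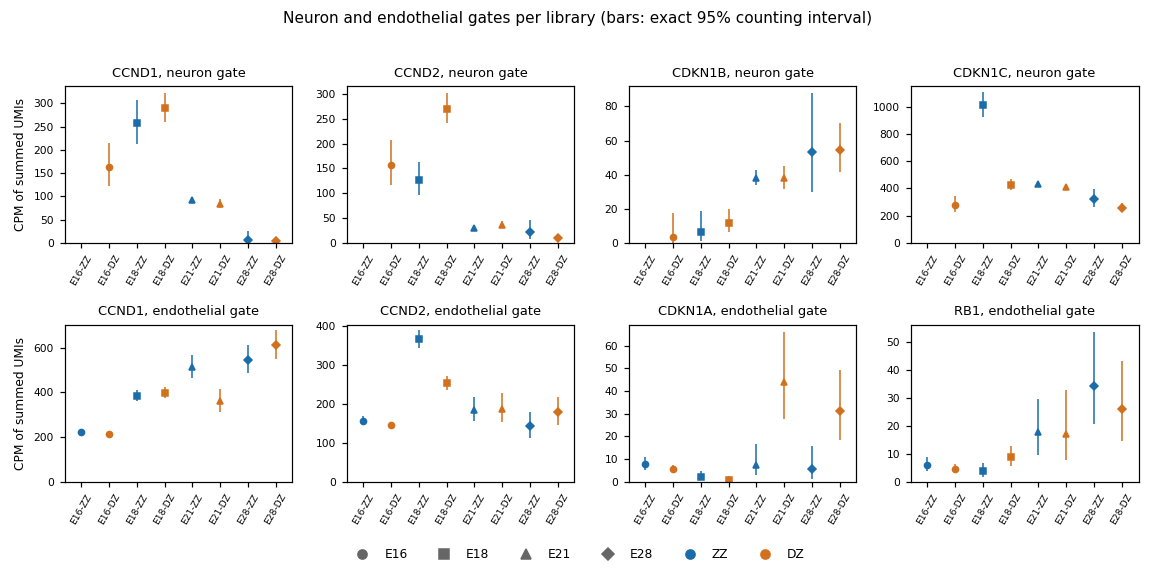
Levels in the neuron gate (top row) and the endothelial gate (lower row), in CPM of summed UMIs (linear axes from 0), for each library in stage order; bars are exact 95% intervals for counting error. In neurons CCND1 and CCND2 were lowest at E28 and CDKN1B was highest there, and in endothelial cells RB1 was highest at E28.

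Endothelial cells, which line blood vessels, had high CCND1. Its values were 223 and 214 (E16), 384 and 399 (E18), 515 and 359.6 (E21) and 546 and 612 (E28) CPM. Against the mean of the other gates, CCND1 was higher by 1.65 on the log2 scale (SE 0.21, adjusted p = 1e-10) and was called under all 18 alternatives. CCND3 was higher by 0.69 (SE 0.13, adjusted p = 6.46e-06) and CDKN1A by 1.37 (SE 0.44, adjusted p = 0.00705), whereas CDKN1C was lower by 0.68 (SE 0.17, adjusted p = 0.000505) and CCND2 by 0.52 (SE 0.21, adjusted p = 0.0334). These were 5 of 8 genes, against 44.4% of all genes. CDKN1A ranged from 0.697 to 44.0 CPM in endothelial cells, highest in E21-DZ and next in E28-DZ, and was not called without E21-DZ (0.94, adjusted p = 0.099), with gates read after thinning or with at least 50 cells per sum (0.043, adjusted p = 0.882). CCND2 was lost without E16-ZZ, E16-DZ, E21-DZ or E28-ZZ (adjusted p 0.0621 to 0.0704), without both E16 libraries, with no doublets removed, with at least 50 cells per sum and with no scaling factors. With a mitochondrial limit of 5%, CCND3 stood at -0.010 and CCND1 alone was called. Within the gate, late libraries (E21 and E28) against early ones (E16 and E18) gave 2 of 7 genes tested, where 27.1% of 9291 genes were called. RB1 was at 6.14 and 4.45 (E16), 3.72 and 8.71 (E18), 17.7 and 17.2 (E21) and 34.3 and 26.1 (E28) CPM in endothelial cells and rose by 1.95 on the log2 scale (SE 0.37, adjusted p = 0.00342), and CCND1 rose by 0.66 (SE 0.22, adjusted p = 0.0426). The CCND1 call was lost without E16-ZZ, E16-DZ, E21-ZZ, E28-ZZ or E28-DZ (adjusted p 0.0843 to 0.173), with stricter gates and with gates read after thinning, and neither was called with at least 50 cells per sum.

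Erythroid cells, the red blood cell lineage, were low in CCND1 and CCND2 and high in CCND3 and CDKN2C. CCND1 was at 1.68 to 11.05 CPM and CCND2 at 36.3 to 90.4 CPM. CCND3 was at 88.8 and 56.9 (E16), 62.8 and 60.3 (E18), 39.5 and 63.7 (E21) and 25.4 and 65.1 (E28) CPM. Its mean of 57.8 CPM came after those of MYOG+ and MYOD1+ cells, and its range overlapped those of MYOD1+ and endothelial cells. In E28-ZZ it lay below the 44.9 CPM of fibroblasts, and in every other library above them. Against the mean of the other gates, CCND3 was higher by 2.73 on the log2 scale (SE 0.14, adjusted p = 1.12e-30), CCND1 lower by 2.96 (SE 0.46, adjusted p = 5.72e-08), CCND2 lower by 0.93 (SE 0.26, adjusted p = 0.00144) and CDKN1C lower by 2.94 (SE 0.26, adjusted p = 9.89e-17). The INK4 gene CDKN2C was at 20 and 10.6 (E16), 12.4 and 17.2 (E18), 39.5 and 25.1 (E21) and 10.9 and 32.6 (E28) CPM. Every value lay above those of neural progenitors, the gate with the next mean, but several lay below the 20.4 CPM (5 UMIs) of sclerotome cells and the 12.6 CPM (8 UMIs) of neural crest and glial cells in E28-DZ. CDKN2C was higher by 5.85 (SE 0.35, adjusted p = 1.25e-25), on 109 UMIs in erythroid cells. In total 7 of 8 genes were called, where 51.4% of all genes were. The scaling factors of erythroid sums were 0.334 to 0.587, against 0.747 to 1.34 in the other gates, and they set the level of all differences here. With no scaling factors the 5 genes named above kept their direction and their calls, with CCND3 at 1.32 and CDKN2C at 4.41, while CDKN1B went from 1.15 (SE 0.26, adjusted p = 8.87e-05) to -0.32 (adjusted p = 0.225) and RB1 from 1.91 (SE 0.29, adjusted p = 3.92e-08) to 0.49 (adjusted p = 0.104).

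The cartilage lineage was compared in the same way. Between sclerotome cells, the vertebral precursors, and chondrogenic cells, log2 differences of the 8 genes ran from -0.79 to 1.52 with adjusted p-values of 0.451 to 0.985, and 0 of 8 passed where 1.86% of all genes did by edgeR and 1369 of 11829 had an unadjusted p under 0.05. The differences between steps were then tested as such. The muscle step (MYH3+ minus MYF5+) was subtracted from the neuron step (neuron minus neural progenitor) and from the cartilage step (chondrogenic minus sclerotome). Against the muscle step, the neuron step was lower for CCND2 (-2.92 on the log2 scale), CDKN1C (-1.77) and RB1 (-1.87) and higher for CCND3 (1.34). These were 4 of 8 genes, against 23.1% of all genes. For CDKN1A this test could not decide (-4.78, SE 73.01), as neural progenitors held 0 CDKN1A UMIs. With gates read after thinning only CCND2 stayed called, and CDKN1C (-0.97, adjusted p = 0.241), RB1 (adjusted p = 0.376) and CCND3 did not. The cartilage step was higher than the muscle step for CCND1 (2.17) and lower for CDKN1C (-1.90), RB1 (-1.94) and CDKN1A (-6.86), again 4 of 8 genes, against 25.2% of all genes. The CDKN1A value rested on 3 UMIs in sclerotome cells.

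The muscle gates were also compared between stages. Between E21 and E28 none of the genes tested passed in MYF5+ (0 of 6, with 4.55% of 8447 genes called by edgeR), MYOG+ (0 of 7, with 1.97% of 7266) or MYH3+ cells (0 of 6, with 2.19% of 5616). The nearest were CCND1 at 0.76 (SE 0.24, adjusted p = 0.0582) and CDKN1C at 0.70 (SE 0.22, adjusted p = 0.0659) in MYF5+ cells. CDKN1A in MYH3+ cells was 0.20 (SE 0.25, adjusted p = 0.828), and these 4-library comparisons could miss small changes. In a simulation of the MYOG+ comparison, 39% of 2-fold and 99% of 4-fold changes were recovered. All sums were drawn there from the same mean profile, and only genes above a set level were changed. CDKN1B (mean of 12.2 CPM in these MYOG+ sums) and RB1 (15.4 CPM) lay below that level, so the recovered shares do not cover them.

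Cells rich in mitotic transcripts were then set against cells of their own gate without them. Cells thinned to 2000 UMIs were called mitotic with 3 or more UMIs of the mitotic genes and compared with cells that had none. The latter class was not limited to cells with few transcripts of S or G2M phase. In E28-DZ it held 206 MYF5+ cells, while 34 had few of both. In MYF5+ cells, CCND2 was at 341 and 259 CPM at E21 and 331 and 384 CPM at E28 in mitotic cells, against 453, 444, 418 and 445 CPM in the others. It was lower in 4 of 4 libraries, by 0.48 on the log2 scale (SE 0.09, adjusted p = 5.7e-05), and was the single member called of 5 tested, against 13% of 5922 genes. In fibroblasts, 4 of 8 genes were called, against 21.9% of 11425 genes. CDKN2C held 131 UMIs in mitotic and 8 in other fibroblasts and was higher by 4.63 (SE 0.44, adjusted p = 2.27e-07), in 6 of 8 libraries, and the largest values were 12.2 and 11.8 CPM in the mitotic cells of the E28 libraries. CDKN1B was higher by 0.52 (SE 0.12, adjusted p = 0.00449), in 7 of 8 libraries. CDKN1C was lower by 0.36 (SE 0.07, adjusted p = 0.000372), in 8 of 8 libraries. CCND2 was lower by 0.27 (SE 0.09, adjusted p = 0.0446), but both E16 libraries went the other way and the call was lost without any 1 of the 6 later libraries (adjusted p 0.0562 to 0.154), by DESeq2, with no doublets removed and with no scaling factors. In neural crest and glial cells CCND1 alone of 6 was called, lower by 0.46 (SE 0.13, adjusted p = 0.0134), where 9.61% of 6784 genes were. It was lower in 4 of 5 libraries and higher in E18-ZZ, and it was lost without E21-ZZ, E21-DZ or E28-DZ (adjusted p 0.0787 to 0.28), by DESeq2, with a mitochondrial limit of 5% and with no scaling factors. CDKN2C was not tested in MYF5+ or in neural crest and glial cells. In mitotic and other cells it held 6 and 0 UMIs in MYF5+ and 25 and 1 in neural crest and glial cells.

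**Figure D5:**
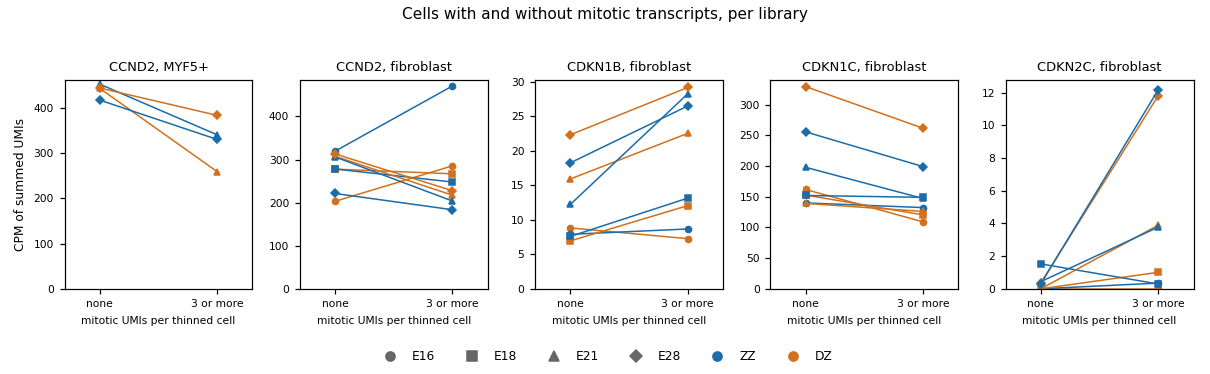
Level in CPM of summed UMIs (linear axes from 0) in cells with no mitotic UMI and with 3 or more, per library; lines join the classes of a library, marker shape gives the stage and colour the breed. CCND2 was lower in mitotic MYF5+ cells in 4 of 4 libraries and CDKN2C was higher in mitotic fibroblasts in 6 of 8.

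The MYOG+ gate had both classes in the E28 libraries alone, so no test was made. CDKN1A was at 16.1 and 18.4 CPM in mitotic and 95.8 and 83.5 CPM in other MYOG+ cells, and CCND3 at 48.4 and 36.8 against 109 and 123 CPM. CDKN1C was at 2606 and 2490.0 CPM in mitotic and 3200.0 and 2461 CPM in other MYOG+ cells, and the classes overlapped for this gene. The mitotic share was 33.4% to 68.7% in MYF5+ sums, 9.09% to 50% in MYOG+ sums (at most 19.6% without E18-DZ, where 11 of 22 cells were mitotic) and 0% to 4.0% in MYH3+ sums.

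Further genes of the G1/S machinery were read from 6 lists. Of all 11829 genes tested, 2181 were higher and 2423 lower between MYH3+ and MYF5+ cells, and 197 were higher and 98 lower between MYOD1+ and MYOG+ cells. Between MYH3+ and MYF5+ cells, 12 of 12 DNA replication genes were lower (median -2.32 against -0.12 over all genes), with ORC1 at -4.29, MCM3 at -3.53 and MCM5 at -3.18 on the log2 scale. Of the partners of D cyclins and other G1/S kinases, 8 of 10 were lower, led by the E-type cyclin gene CCNE2 at -3.38. Of pocket protein and E2F genes 9 of 12 were lower, led by the repressor E2F8 at -3.70. Of 8 p53 target genes 5 were higher and none lower, with the RNA-binding protein gene ZMAT3 at 2.94, the cyclin G gene CCNG1 at 1.80 and TP53INP1 at 1.38. Among genes for inhibitor turnover 3 of 7 were higher and 2 lower, with the ubiquitin ligase gene FBXW7 at 2.55 and DTL, which directs p21 for destruction, at -3.72. From MYF5+ to MYOD1+ cells none of the genes tested on the 6 lists passed, where 0.769% of all genes did. At that share, lists of this size would hold hardly any call. From MYOD1+ to MYOG+ cells 3 of 12 DNA replication genes were lower (MCM4 at -1.10, PCNA at -1.02 and MCM7 at -0.67) with E2F5 at -1.04. CDKN3, a phosphatase listed with the inhibitors, was higher in mitotic cells of all 3 gates tested, by 3.16 in MYF5+, 3.18 in fibroblast and 2.13 in neural crest and glial cells.

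Within single cells, the inhibitors of muscle cells could be read together. Of 982 MYOG+ cells deep enough for thinning, 899 had a CDKN1C UMI after thinning, and the 98 with a CDKN1A UMI were all among them (10.9% of cells with and 0% without CDKN1C). In MYH3+ cells CDKN1A was present in 52.3% of cells with CDKN1C and 51.2% of those without. In neurons CCND2 was present in 24.1% of cells with CCND1 and 4.4% of those without, over libraries of all stages. These shares pool the cells of several libraries and carry no test.

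The genes whose levels followed each member most closely were ranked by Pearson's r of log2(CPM + 1) over the 95 sums of gate and library, which share libraries and depth. CDKN1A was followed by the unnamed gene ENSSSCG00000010077 (r = 0.837), by HJV, a co-receptor for bone morphogenetic proteins that is expressed in skeletal muscle (0.836), and by MAP3K7CL (0.815). CDKN1C was followed by DCAKD (0.866), SPG21 (0.86) and the telomere protein gene TERF2IP (0.857). CCND1 was followed by ASAP2 (0.836), the matrix metalloprotease gene MMP2 (0.829) and the helix-loop-helix inhibitor gene ID3 (0.829), and CCND2 by EEF1D (0.815), SKP2, which directs p27 for destruction (0.796), and RPS7 (0.793). CDKN2C was followed by CYP27A1 (0.679), the erythroid adhesion gene ICAM4 (0.66) and the haem synthesis gene UROS (0.652). CCND3 had POLD4 (0.628), CDKN1B had MFF (0.644) and RB1 had WBP2 (0.582) as the closest, with lower values of r.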

How the data were processed

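Single cells of 8 libraries were profiled with 10x Chromium 3' chemistry. The deposited matrices hold raw UMI counts per gene and barcode, which the authors made with Cell Ranger 3.1.0 (2 E16 libraries) and 3.0.2 (the other 6) against Sscrofa11.1 with Ensembl annotation. From these counts, cells with at least 200 genes, at most 30000 UMIs and at most 10% mitochondrial UMIs were kept, and the top Scrublet scores (0.8% per 1000 barcodes) were removed as doublets, 8247 in all. Cell types were gated on marker UMIs, counts were summed per gate and library with at least 20 cells, and edgeR 4.0.16 (R 4.3.3, TMM factors, filterByExpr, quasi-likelihood test, Benjamini-Hochberg adjustment over all genes tested, threshold 0.05) was fitted with library as a block, or with stage and breed for whole libraries and stages within a gate. Genes used by the gates were not tested between gates.

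The planned comparisons of cell cycle phase could not be fitted, because the MYF5+ and neural progenitor gates they were planned for held 20 cells with neither S nor G2M transcripts in at most 1 library. Mitotic against other cells took their place, chosen after seeing the data, with scaling factors and the breed term as further added alternatives. The 8 genes, the gates and the lists were chosen with earlier results of these data known. Named genes were the 8 members, per list and comparison up to 3 genes past the threshold with the largest change, and per member the 3 most correlated genes. Tests were checked on simulated data (MYH3+ minus MYF5+: 100% of 4-fold and 80% of 2-fold changes recovered, with 100 genes changed for each among 10754 tested). Here too all sums were drawn from the same mean profile, and only genes above a set level were changed. These shares therefore do not cover differences in profile between gates, or genes of low level such as RB1 and CDKN2C. Intervals and floors (3 counts) cover counting error only. DESeq2 1.42.0, Python 3.11.15, scanpy 1.11.5, numpy 2.4.6 and scipy 1.17.1 were also used. Promoter windows came from RefSeq and all 8 genes matched.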

Additional observations from a re-analysis of the deposited data

Results flagged for a closer look

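The change along another lineage differed from that along the muscle lineage (MYH3+ minus MYF5+), in the test of the difference itself, for 4 of the 8 genes with the neuron lineage (23.1% of all genes) and for 4 with the cartilage lineage (25.2% of all genes). The neuron step (neuron minus neural progenitor) minus the muscle step was -1.77 for CDKN1C (SE 0.36, adjusted p = 0.000133), -2.92 for CCND2 (SE 0.46, adjusted p = 7.19e-07), -1.87 for RB1 (SE 0.57, adjusted p = 0.0109) and 1.34 for CCND3 (SE 0.47, adjusted p = 0.0298) on the log2 scale. That of CDKN1A (-4.78, SE 73.01) could not be decided, as neural progenitors held 0 CDKN1A UMIs. The CCND3 value was lost without E16-ZZ, E16-DZ, E21-ZZ or E21-DZ (0.83 to 1.202, adjusted p 0.0613 to 0.261), without both E16 libraries, with no doublets removed and with at least 50 cells per sum. With gates read after thinning, CCND2 alone of the 4 stayed called (-4.20), while CDKN1C (-0.97, adjusted p = 0.241), RB1 (adjusted p = 0.376) and CCND3 were no longer called. The cartilage step (chondrogenic minus sclerotome) minus the muscle step was -1.90 for CDKN1C (SE 0.36, adjusted p = 2.61e-05), 2.17 for CCND1 (SE 0.60, adjusted p = 0.00385), -1.94 for RB1 (SE 0.63, adjusted p = 0.0165) and -6.86 for CDKN1A (SE 2.53, adjusted p = 0.036). That of CDKN1A was lost without any 1 library of E21 or E28 (adjusted p 0.0571 to 0.348) and with stricter gates, that of RB1 without E21-DZ or E28-ZZ (adjusted p 0.0794 to 0.102) and with a mitochondrial limit of 5%. The neural gates came mainly from E16 to E21 and the MYH3+ gate from E18 to E28. The part of stage in these differences was not tested beyond the library block.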

How the results depend on the processing

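Over all alternatives, 2781 of the log2 fold changes of members kept their side of the threshold, 125 lost and 54 gained a call, and 2 reversed. A change of sign was counted as a reversal only where either fit called the gene, and otherwise among the 2781. The reversals were CCND3 in endothelial cells with a mitochondrial limit of 5% (-0.010 against 0.69) and CDKN1B in erythroid cells with no scaling factors (-0.32 against 1.15). The causes were not tested. Counts of members called stayed within 1.5 times in 332 cases. They moved as follows, without the share of all genes called under each alternative beside them. A moved count therefore does not tell whether the members moved more than other genes. DESeq2 gave 1 for E16 to E18 (against 0), 2 for E21 to E28 (against 1) and 0 for mitotic neural crest and glial cells (against 1). RLE size factors gave 2 within MYF5+ (against 0). No filter on low counts gave 4 within endothelial cells (against 2). A mitochondrial limit of 5% gave 0 for E21 to E28, 1 for endothelial cells (against 5), 1 within MYH3+ (against 0) and 0 for mitotic neural crest and glial cells. No doublets removed gave 0 for MYF5+ minus PAX3+ (against 1) and 1 within MYF5+. Stricter gates gave 1 for MYOD1+ minus MYF5+ (against 2), 1 within MYH3+, 1 within endothelial cells, 3 for mitotic MYF5+ cells (against 1) and 2 for mitotic neural crest and glial cells. Gates read after thinning gave 2 for MYF5+ minus PAX3+, 0 for MYOG+ minus MYOD1+ (against 2), 1 for the neuron step minus the muscle step (against 4), 1 within MYF5+, 1 within MYH3+, 1 within endothelial cells, 1 within neurons (against 3) and 2 for mitotic MYF5+ cells. At least 50 cells per sum gave 3 for endothelial cells and 0 within them. Without both E16 libraries MYF5+ minus PAX3+ gave 0. No scaling factors, added after seeing the data, gave 1 for E16 to E18, 1 for MYOG+ minus MYOD1+, 2 within MYF5+, 1 within MYH3+ and 0 for mitotic neural crest and glial cells. Breed is also the replicate number, and it was in the fits as the replicate block. With no replicate block, also added, E16 to E18 gave 1 (CDKN1B), and the counts of the other stage comparisons stayed within 1.5 times. Leaving out 1 library at a time gave 0 to 4 for E18 to E21 (against 4), 0 for E21 to E28, 0 to 1 for MYF5+ minus PAX3+, 1 to 2 for MYOD1+ minus MYF5+, 1 to 2 for MYOG+ minus MYOD1+, 2 to 4 for the cartilage step minus the muscle step (against 4), 3 to 6 for endothelial cells, 0 to 1 within MYF5+, 1 to 2 within endothelial cells, 1 to 2 for mitotic MYF5+ cells and 0 to 1 for mitotic neural crest and glial cells. The phase comparisons and their class threshold of 3 were not run. Depth limits CDKN2C and RB1 most, with 835 and 2764 UMIs in all kept cells.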
